A study of Homo sapiens with 12 samples.

Results

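DDIT4 (also called REDD1) encodes a small stress-induced protein that restrains mTORC1, the kinase complex that couples nutrients and growth signals to protein synthesis. The DDIT4 neighbourhood was taken here as chr10:73990000-74120000 on hg19, with DDIT4 on the plus strand from about 74033700 to 74035800. Its members were the H3K27ac peaks overlapping those 130 kb. The stretch was chosen by its called peaks, which were known to be shared between cell lines, so its counts and levels are given as a description and no test was made on them. It held 91 of the 190767 peaks used, and these merged into 17 of the 58994 regions that peaks sharing at least 1 bp formed over the whole genome.

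H3K27ac was measured by ChIP-seq in BxPC3, Panc327 and SUIT2 cells, 3 human pancreatic ductal adenocarcinoma lines. Each line had 2 H3K27ac libraries and 2 input libraries, 12 samples in all. Only the 6 H3K27ac libraries had peak lists, and the inputs entered through the background of the peak caller. The labels state no genotype, drug or time point, nor whether the replicates of a line are separate cultures. Each SD therefore covers the spread of these libraries alone.

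Acetylated lysine 27 of histone H3 marks active promoters and active enhancers. Clusters of such enhancers often surround genes that a cell keeps ready or expresses strongly. DDIT4 is induced by hypoxia, DNA damage, glucocorticoids and the integrated stress response, in which the transcription factor ATF4 is made when general translation is lowered. The DDIT4 protein acts through the TSC1-TSC2 complex, which switches off RHEB, the activator of mTORC1. The mark alone does not separate a promoter from an enhancer, and no RNA was measured in these samples.

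The promoter is shown because a peak called in all 6 libraries lay over it. The sequence is the RefSeq promoter of DDIT4 on GRCh38.p14, plus strand of chromosome 10, 250 bases before to 50 after the start. Capitals mark matches to the searched motifs.

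DDIT4 promoter: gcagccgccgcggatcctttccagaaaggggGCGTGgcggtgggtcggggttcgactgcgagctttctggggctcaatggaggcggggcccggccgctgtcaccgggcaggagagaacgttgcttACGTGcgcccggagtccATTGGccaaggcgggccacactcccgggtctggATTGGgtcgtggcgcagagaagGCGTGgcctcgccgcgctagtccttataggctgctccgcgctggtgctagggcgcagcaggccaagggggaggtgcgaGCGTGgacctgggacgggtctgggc

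These 300 bases were 69.7% G and C, against a median of 58.7% over the 35116 promoter windows of the table. The hypoxia-response core ACGTG occurred 1 time, at −125 to −121, and its other form GCGTG 3 times, counting both strands. ACGTG is held by 21.4% of all promoter windows and GCGTG by 36.5%. CCAAT, the box bound by the factor NF-Y, occurred 2 times, both on the minus strand and printed as ATTGG; 34.6% of windows hold it. The other 7 motifs searched had no match in these letters. They were the ATF4-type composite TGATGNAA (in 3.62% of windows) and its stricter form TTGCATCA (0.866%), the cAMP-response element TGACGTCA (1.85%) and the E-box CACGTG (7.26%), which contains ACGTG. The remaining ones were the AP-1 site TGANTCA (7.71%), the GC box GGGCGG (45.0%) and TATAAA (11.5%). A match is a description of letters, and an absent match says only that they are not in this window.

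RefSeq also places the start of DDIT4-AS1, a long noncoding RNA on the opposite strand, 213 bases before that of DDIT4, inside the printed sequence. H3K27ac has no strand, so signal at this place cannot be told apart between the pair. In the gene order of that table ANAPC16 precedes DDIT4-AS1 and DDIT4, and DNAJB12 follows. ANAPC16 encodes a subunit of the anaphase-promoting complex and DNAJB12 a chaperone of the endoplasmic reticulum. No hg19 annotation was used, so no region other than that at DDIT4 was assigned to a gene, and some may be promoters of these neighbours.

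All 3 lines carried H3K27ac at the DDIT4 start and over several regions downstream, while the stretch upstream was marked in Panc327 and SUIT2 and had no called peak in BxPC3. Of the 17 regions, 6 had a peak in all 6 libraries, against 21.6% of all regions. Another 4 were marked in Panc327 and SUIT2, meaning a peak in both libraries of each, with none in BxPC3; over all regions that class made up 1.17%. A single region was marked in BxPC3 and Panc327 without SUIT2 (3.82% of all regions) and a single one in Panc327 alone (5.79%). The other 5 regions were held by 1, 3 or 5 libraries. The regions shared by all libraries were thus the one at the DDIT4 start and 5 of the 10 downstream, and none upstream. Since the place was chosen with these peaks known, nothing is read from these shares.

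**Figure D1:**
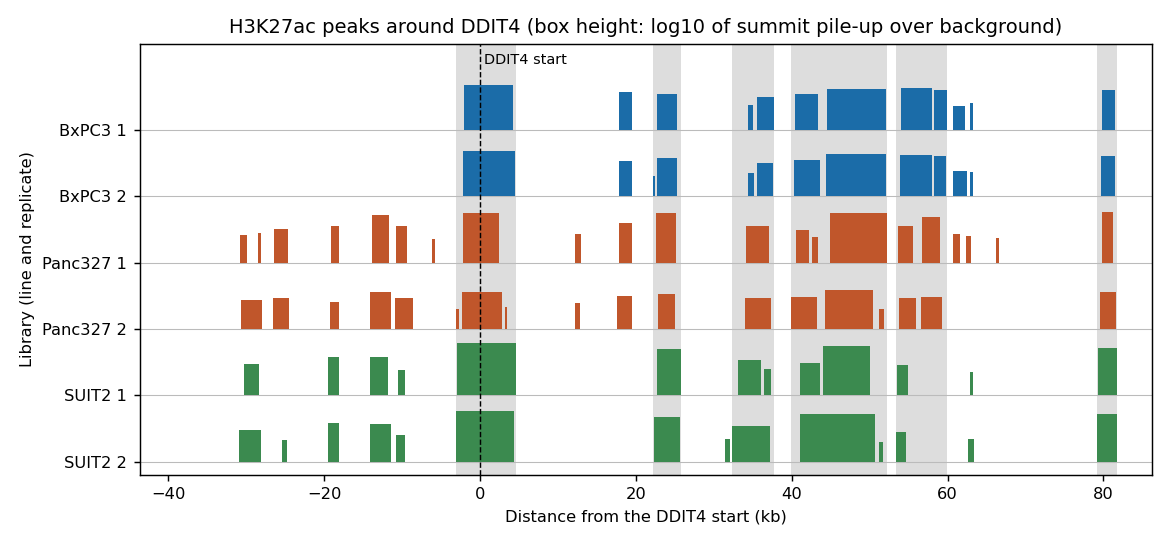
Each row is a library and each box a called H3K27ac peak, placed by its distance in kb from the DDIT4 start (dashed line), with a height that follows the log10 of its summit pile-up over the genome-wide background. Grey bands are the 6 regions with a peak in all 6 libraries; BxPC3 has no box left of the band at the DDIT4 start, where Panc327 and SUIT2 have 4 to 7.

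The libraries held similar numbers of covered bases. Peaks covered 32676 and 34729 bp of the window in BxPC3 replicates 1 and 2, 37819 and 42199 bp for Panc327, and 33843 and 39465 bp for SUIT2. Means were 33702.5 ± 1452 bp, 40009 ± 3097 bp and 36654 ± 3975 bp (SD, n = 2). SUIT2 replicate 1 lay below BxPC3 replicate 2, and SUIT2 replicate 2 above Panc327 replicate 1, so only BxPC3 and Panc327 did not overlap. The number of peaks was 12 and 13 for BxPC3, 21 and 18 for Panc327 and 13 and 14 for SUIT2. With 2 libraries against 2, an exact two-sided permutation test cannot go below p = 0.333.

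The position of the covered bases differed between lines more than their sum. Upstream of the region at the DDIT4 start, BxPC3 had 0 and 0 bp, Panc327 7809 and 11042 bp, and SUIT2 6510 and 8593 bp. Both BxPC3 libraries were thus below all 4 others there. Downstream of that region BxPC3 was the highest line, with 26398 and 28004 bp for BxPC3, 25313 and 25286 bp for Panc327, and 19755 and 23414 bp for SUIT2. No pair of lines overlapped in the downstream values, but this rests on the longer BxPC3 lists. Downstream peaks of 583 and 1475 bp ranked 28958 and 29379 in BxPC3 replicate 1. They drop out when each list is cut to 27776 peaks, while Panc327 replicate 1 loses none. BxPC3 replicate 1 then lies below Panc327 replicate 1, so BxPC3 and Panc327 overlap.

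**Figure D2:**
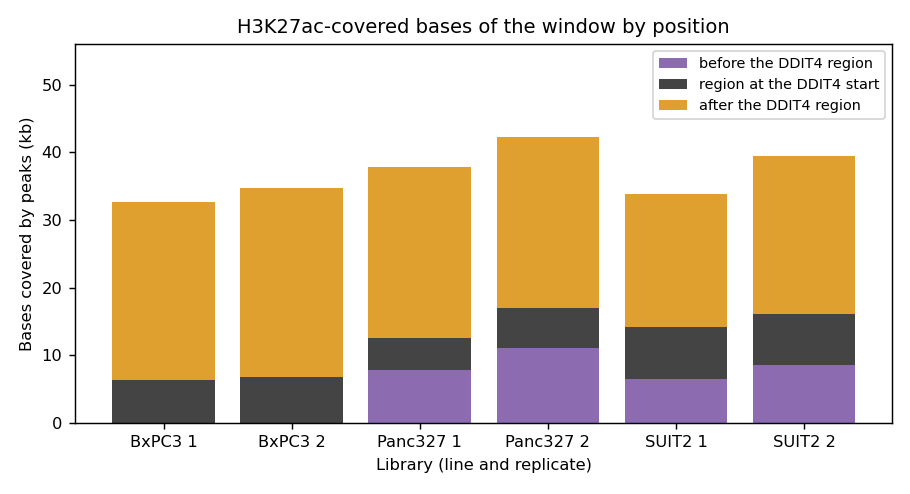
Stacked bars give, for each library, the kb of the window covered by H3K27ac peaks before, in and after the region that holds the DDIT4 start. The part before it is missing in both BxPC3 libraries and between 6510 and 11042 bp in the other 4.

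Levels at summits are given as the summit pile-up, the number of overlapping fragments recovered from each peak's deposited values, over the genome-wide background of its library. The median over all peaks of a list was 26.4 and 22.8 for BxPC3 replicates 1 and 2, 46.6 and 19.3 for Panc327, and 29.8 and 26.3 for SUIT2. Panc327 replicate 1 thus had a higher median than its pair, and levels are also given as a multiple of the list's own median. The local background at member summits was 1.00 to 2.38 times the genome-wide level, with medians per library from 1.00 to 1.36. Over all peaks of each list the median was 1.00 to 1.34. Copy loss cannot be seen this way, because the caller's background does not go under the genome-wide level.

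The region at the DDIT4 start spanned 74030561 to 74038275, −3.1 to 4.6 kb from the start (negative is before it), and so covered the gene as placed above. Its main peak was 6278 and 6725 bp wide in BxPC3, 4697 and 5170 bp for Panc327, and 7578 and 7458 bp for SUIT2. Panc327 replicate 2 had a small extra peak on each side of it. The SUIT2 peaks were the widest of the 3 lines here and those of Panc327 the narrowest. Bases called in all 6 libraries ran without a break from 74031604 to 74036174, 4571 bp from −2.1 to 2.5 kb. The BxPC3 and SUIT2 peaks ended between 4.2 and 4.6 kb, farther past the gene than the main Panc327 peaks.

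Summit pile-up at the DDIT4 start was 292 and 400 fragments in BxPC3, 261 and 137 for Panc327, and 734 and 725 for SUIT2. Over background this was 111.8 and 110.0 for BxPC3, 179.0 and 48.0 for Panc327, and 223.0 and 200.8 for SUIT2. As a multiple of the list's median it was 4.23 and 4.82 for BxPC3, 3.84 and 2.49 for Panc327, and 7.49 and 7.63 for SUIT2. On that last scale SUIT2 was highest and Panc327 lowest, and no 2 lines overlapped. On the scale over background Panc327 replicate 1 lay above both BxPC3 libraries and replicate 2 below them. By −log10 q, the peak ranked 734 of 34113 and 1340 of 38335 in the BxPC3 lists, 4601 of 27776 and 1282 of 29139 for Panc327, and 291 of 29983 and 280 of 31421 for SUIT2.

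The summit lay at −0.7 to −0.5 kb in 5 libraries, between 74033028 and 74033154. In Panc327 replicate 1 it lay at 74034158, 0.5 kb after the start and so inside the gene. The position of the start is itself approximate.

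The second region held by all libraries ran from 74055860 to 74059431, 22.2 to 25.7 kb after the start. All 6 summits fell within 243 bp of each other, the tightest agreement of the 6 shared regions. Summit pile-up over background was 41.7 and 55.3 for BxPC3, 175.6 and 38.2 for Panc327, and 122.8 and 106.6 for SUIT2. As a multiple of the list's median the values were 1.58 and 2.42, 3.76 and 1.98, and 4.12 and 4.05. SUIT2 was above the other 4 libraries on that scale, while BxPC3 and Panc327 overlapped.

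A weaker shared region lay at 74066097 to 74071390, 32.4 to 37.7 kb after the start. Its highest summits were 1.22 and 1.36 times the list's median in BxPC3, 0.94 and 1.35 for Panc327, and 1.32 and 1.62 for SUIT2. The lines overlapped here. The strongest summits stood at 34.6 kb in both SUIT2 libraries and at 35.9 to 36.9 kb in the other 4. Both BxPC3 libraries also had a weaker summit at 34.6 and 34.7 kb, and SUIT2 replicate 1 one at 36.8 kb.

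The broadest shared region spanned 74073588 to 74085865, 12278 bp from 39.9 to 52.2 kb after the start. Peaks covered 10411 and 11073 bp of it in BxPC3, 9630 and 10252 bp for Panc327, and 8686 and 10052 bp for SUIT2. SUIT2 replicate 2 called 74074816 to 74084334 as 1 peak of 9519 bp, the widest member of the window, where the other 5 libraries had a break. A stretch of 5133 bp, 74078659 to 74083791, was covered in all 6 libraries and is longer than the common stretch at the DDIT4 start. Highest summits were 2.88 and 3.75 times the list's median in BxPC3, 3.87 and 2.91 for Panc327, and 5.42 and 5.65 for SUIT2. On that scale SUIT2 stood above the other 4, and BxPC3 and Panc327 overlapped. Over background Panc327 replicate 1, at 180.4, lay above both SUIT2 libraries, at 161.3 and 148.7. Summits stood at 45.5 kb in both BxPC3 libraries, at 45.6 and 46.6 kb in Panc327, and at 47.3 and 47.4 kb in SUIT2. The SUIT2 summits thus lay apart from the others, and Panc327 replicate 1 lay beside BxPC3.

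The next shared region, 74087108 to 74093684, lay 53.4 to 60.0 kb after the start and was shared only in its first part. SUIT2 covered 1404 and 1267 bp of it, against 5643 and 5655 bp for BxPC3 and 4311 and 4817 bp for Panc327. Bases called in all 6 libraries came to 684 bp, 74087691 to 74088374. The SUIT2 summits stood at 54.3 and 54.1 kb, and the strongest summits of the other lines at 57.5 to 58.7 kb. Both Panc327 libraries also had a weaker peak with its summit at 54.3 kb. Levels were 2.96 and 3.10 times the list's median in BxPC3, 2.53 and 1.49 for Panc327, and 0.82 and 0.80 for SUIT2. On that scale BxPC3 was highest and SUIT2 lowest with no overlap, the reverse of the order of SUIT2 at the DDIT4 start. Over background Panc327, at 118.0 and 28.7, lay on either side of BxPC3, at 78.1 and 70.7. SUIT2 was lowest there too, at 24.3 and 21.0. Within this region 74090382 to 74091655 and 74092007 to 74092764 were called in both BxPC3 and both Panc327 libraries and in neither SUIT2 library.

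The last shared region, 74112921 to 74115483, lay 79.2 to 81.8 kb after the start. Its summits fell within 307 bp of each other. Levels were 2.42 and 2.88 times the list's median in BxPC3, 4.34 and 2.33 for Panc327, and 4.73 and 5.20 for SUIT2. On that scale SUIT2 was again above the other 4 and Panc327 spanned the BxPC3 values. Over background Panc327 replicate 1, at 202.3, lay above both SUIT2 libraries, at 141.0 and 136.8. In Panc327 replicate 1 this region had the highest summit pile-up over genome-wide background of the window, 202.3, above that at the DDIT4 start, 179.0. Its local background was 2.04 times the genome-wide level, against 1.36 at the DDIT4 start. By the deposited fold, which is over local background, it stood lower, at 74.5 against 87.9.

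**Figure D3:**
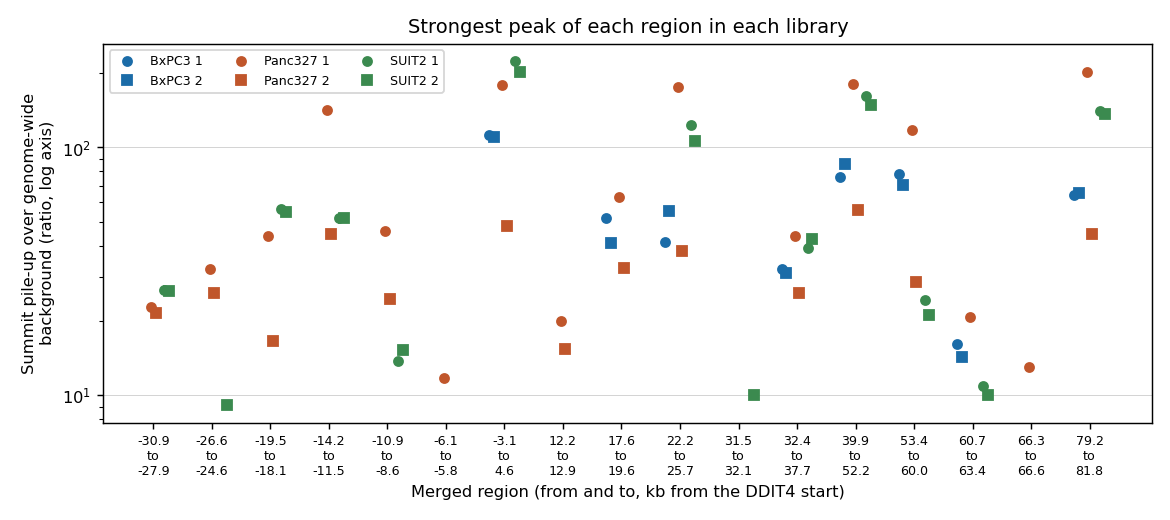
For each of the 17 regions, ordered by distance from the DDIT4 start, points give the summit pile-up over the genome-wide background (log axis) of the strongest peak in each library that held it. SUIT2 is highest at the DDIT4 start (223.0 and 200.8) and among the lowest at 53.4 to 60.0 kb (24.3 and 21.0).

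Upstream, the 4 regions of Panc327 and SUIT2 lay between −30.9 and −8.6 kb, negative distances being before the start. The one at 74019524 to 74022205, −14.2 to −11.5 kb, had the highest summits of the 4 for Panc327, with a summit pile-up of 206 and 128 fragments in Panc327 and 171 and 187 for SUIT2. Over background these were 141.3 and 44.8, and 52.0 and 51.8. On that scale the pair of Panc327 libraries lay on either side of SUIT2. As a multiple of the list's median Panc327 was the higher line, with 3.03 and 2.33 against 1.74 and 1.97. By −log10 q the peak stood at percentiles 75.2 and 94.0 of the Panc327 lists and at 64.0 and 66.7 of the SUIT2 lists.

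At 74014156 to 74015650 the order was the other way round, with 0.94 and 0.85 times the list's median in Panc327 and 1.90 and 2.08 for SUIT2. The 4 summits lay within 69 bp of each other, at −18.9 to −18.8 kb, and these were the highest SUIT2 summits upstream. At 74022783 to 74025093 Panc327 was higher again, with 0.99 and 1.27 against 0.46 and 0.58. At 74002773 to 74005751, the farthest one, the values were 0.49 and 1.11 for Panc327 and 0.90 and 1.00 for SUIT2, and the lines overlapped. The lines did not overlap on that scale at 3 of the 4 regions. No share over all regions stands beside this count, so nothing is read from it.

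The BxPC3 lists held no peak in any of these 4 regions. The lowest summit called anywhere in those lists was 8.4 and 7.4 times the background in replicates 1 and 2. Summits of the 4 regions in the other lines stood at 13.7 to 141.3. A BxPC3 signal under its calling limit would not be seen in these files. In both BxPC3 libraries the nearest peak before that at DDIT4 ended 84.4 and 84.3 kb away, at 73947181 and 73947247. In Panc327 and SUIT2 the last peaks before the window ended 6.6 to 12.7 kb from its edge, at −log10 q of 16.9 to 36.9, and none of these overlapped a BxPC3 peak.

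On the far side BxPC3 was again the sparse line. After the region at 79.2 to 81.8 kb the next BxPC3 peaks began at 74384707 and 74384734, 269.5 kb on in both replicates. The next peaks of Panc327 and SUIT2 began between 74123553 and 74124171, 3.6 to 4.2 kb outside the window, with −log10 q of 25.8 to 61.8. The BxPC3 peaks around DDIT4 therefore stood between a pair of long stretches without called peaks.

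SUIT2 had its own gap. The region 74051288 to 74053252, 17.6 to 19.6 kb after the start, was called in both BxPC3 and both Panc327 libraries, with 1.96 and 1.8, and 1.35 and 1.69 times the list's median. BxPC3 was the higher line there on that scale. Over background Panc327, at 63.1 and 32.6, lay on either side of BxPC3, at 51.7 and 41.0. Neither SUIT2 library had a peak, though the lowest summits called in those lists were 6.1 and 5.8 times the background and the region stood at 32.6 to 63.1 times in the others. The region marked in Panc327 alone, 74045890 to 74046598, had small peaks of 704 and 694 bp at 0.43 and 0.80 times the list's median. Local background at their summits was 2.38 times the genome-wide level, the highest of all member summits, and 1.76 times.

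The remaining 5 regions were called in only 1 library of at least 1 line. The region 74007118 to 74009138, −26.6 to −24.6 kb, was called in both Panc327 libraries, at 0.69 and 1.35 times the list's median, and in SUIT2 replicate 2, at 0.35 times. The region 74094378 to 74097063, 60.7 to 63.4 kb after the start, was called in 5 libraries and not in Panc327 replicate 2, at 0.37 to 0.63 times the list's median. Single libraries called 74027587 to 74027904 and 74099959 to 74100280 (both Panc327 replicate 1) and 74065182 to 74065835 (SUIT2 replicate 2). Those single peaks were 318 to 654 bp wide.

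Base by base, 56141 bp of the window, 43.2%, were covered in at least 1 library. Of these, 31.0% were covered in all 6, against 16.6% of the covered bases of all chromosomes used. Bases of 1 or 2 libraries made up 10.7 and 15.3% in the window and 21.1 and 35.9% overall. These shares too are a description, since the place was chosen with its shared peaks known. The 17379 bp common to all libraries lay in 10 stretches, 4571 bp at DDIT4 and 12808 bp downstream. Bases called in both Panc327 and both SUIT2 libraries and in no BxPC3 library came to 5191 bp, of which 4397 bp lay upstream. Bases of BxPC3 and Panc327 without SUIT2 came to 5161 bp, all of them downstream.

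**Figure D4:**
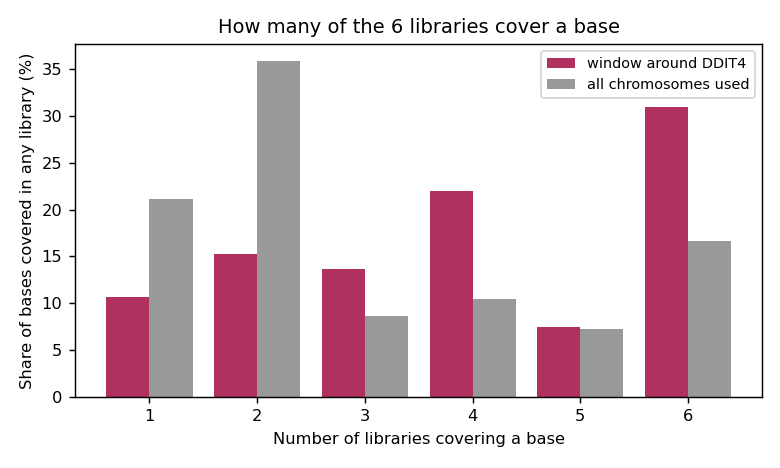
Bars give the share (%) of bases covered by peaks that were covered in exactly 1 to 6 libraries, in the window around DDIT4 and over all chromosomes used. The window has 31.0% of its covered bases in all 6 libraries, against 16.6% overall.

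Library pairs overlapped more in the window than over the genome, with the SUIT2 pair as the exception. The Jaccard index, the bases called in both lists over those called in either, was 0.922 in the window for the BxPC3 pair (0.814 over the genome), 0.733 for Panc327 (0.519) and 0.822 for SUIT2 (0.868). The 12 pairs of different lines had 0.454 to 0.620 in the window and 0.280 to 0.456 over the genome. All 12 were higher in the window. The place was chosen with its shared peaks known, so nothing is read from this difference. BxPC3 and SUIT2 were the least alike in the window, with a mean of 0.476, while Panc327 reached 0.575 with BxPC3 and 0.565 with SUIT2. Without the upstream side the means were 0.719 for BxPC3 with Panc327, 0.565 for BxPC3 with SUIT2 and 0.561 for Panc327 with SUIT2.

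**Figure D5:**
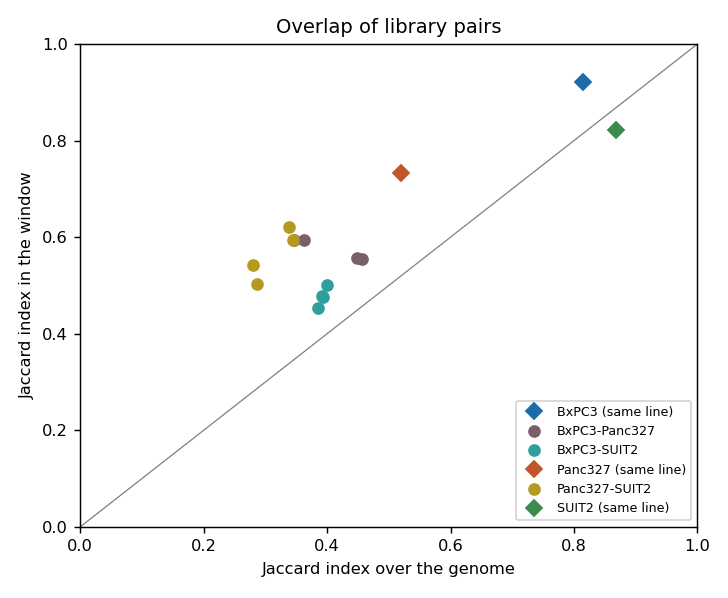
Each point is 1 of the 15 pairs of libraries, with its Jaccard index over the genome on the x axis and inside the window on the y axis; diamonds are pairs of the same line and the grey line marks equal values. All points lie above the line except the SUIT2 pair (0.868 over the genome, 0.822 in the window).

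In every list the window ranked near the top by covered bases. It was placed around known peaks and the compared windows on a fixed grid, which favours a high rank. Among the 13665 adjacent windows of 130 kb that held a peak of any library, 21 and 24 covered more bases than this one in BxPC3 replicates 1 and 2, 9 and 5 for Panc327, and 99 and 69 for SUIT2. The median window covered 1144 to 2350 bp, depending on the library. Single member peaks were not all high in their lists. Of the member peaks 9 of 12 and 9 of 13 lay above their list's median −log10 q in BxPC3, 8 of 21 and 13 of 18 for Panc327, and 8 of 13 and 7 of 14 for SUIT2.

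Joining peaks less than 12 kb apart, as is done to find super-enhancer-like clusters, gave different pictures of the same place. In Panc327 the cluster that holds the DDIT4 start ran over 97.4 and 90.0 kb with 20 and 17 peaks, and ranked 7 of 16564 and 6 of 17311 clusters by covered bases. In SUIT2 it took in the upstream regions and stopped behind the gene, at 34.9 and 35.3 kb, with ranks of 476 and 391. In BxPC3 it was the peak at DDIT4 alone, 6.3 and 6.7 kb, with ranks of 1338 and 1412. BxPC3 and SUIT2 also each had a separate downstream cluster, past a gap of more than 12 kb, which was not ranked. It ran from 74051466 to 74096933 and from 74051507 to 74097019 in BxPC3 replicates 1 and 2. In SUIT2 it ran from 74056414 to 74096980 and from 74056004 to 74097063. At 20 kb the cluster holding the start had mean widths of 83.6 kb in BxPC3, 120.1 kb in Panc327 and 135.6 kb in SUIT2. At 5 kb its mean widths were 14.1 kb in Panc327 and 7.52 kb in SUIT2, so its size rests on the joining distance. With peaks of a −log10 q of at least 20 alone, the Panc327 mean fell from 93.7 to 61.6 kb.

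H3K27ac at the other genes of the pathway was not read, since gene positions on hg19 were not used here. Their promoters were compared by letters alone. Of 20 stress response genes 16 had a promoter in the table, and of 10 genes of the mTORC1 arm, DDIT4 among them, 8 had one. The ATF4-type composite TGATGNAA, held by 4.46% of all 27305 genes of the table, stood in a promoter window of 4 of the 16, namely ASNS (asparagine synthesis), ATF3 (a stress-induced transcription factor), CHAC1 (glutathione breakdown) and FGF21 (a stress hormone). In the mTORC1 arm TSC2, the partner of TSC1, was the only one of 8. ACGTG (24.9% of all genes) stood in 3 of the 16 (ATF4, SLC7A5 and XBP1) and in 4 of the 8 (DDIT4, RHEB, TSC2 and TXNIP). GCGTG (40.6% of all genes) stood in 11 of 16 and 4 of 8. CCAAT (39.7%) stood in 9 of 16 and 4 of 8, and GGGCGG (48.3%) in 12 of 16 and 5 of 8. A gene counts when any of its promoter windows holds the motif, while the shares given with the sequence are per window.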

How the data were processed

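Peak lists of 6 H3K27ac libraries were used. Per the submitters' processing notes, reads were handled by bcl2fastq 1.8.4 and Bowtie 1.1.1 on hg19, and peaks by MACS2; the MACS2 version and settings are not given in the sources used here. The deposited fold is the authors' ratio of pile-up to local background. The deposited −log10 p and −log10 q are the authors' values; no peak had a −log10 p under 10.0. The deposited score, 10 times the −log10 p rounded down, was not used. Summit offsets gave summit positions.

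Chromosomes 1 to 22 and X were used. The pile-up and background of each peak were solved from fold and −log10 p, as (pile-up + 1)/(background + 1) and a Poisson tail, with whole fragments. Between 99.9 and 100% of a list was solved at a tolerance of 0.001 in −log10 p, with fitted scales of 0.7518 and 0.6516 for the BxPC3 pile-ups. It assumes the usual MACS2 formulas. The genome-wide background is the lowest 1% level of each list. Levels between lines were not scaled for ChIP efficiency. Merging was tested on simulated lists, and solving on peaks simulated with the same formulas and a given scale. That did not test whether the deposited values follow those formulas, nor the fitting of the scales.

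The members, lists and motifs were chosen with earlier results of these data known. All regions of the window are accounted for: those held by all libraries singly, the rest by count and range. The split into upstream and downstream sides, and the multiple of the list's median, were chosen after the values were seen. Alternatives were a −log10 q of at least 20, the same number of peaks (27776) per list, a window cut by 10 kb at each end, a 50% overlap, peaks wholly inside, other stitching distances, shifted windows and leaving out each library. Software was Python 3.11.15 with pandas 2.3.3, numpy 2.4.6, matplotlib 3.10.9 and scipy 1.17.1.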

Additional observations from a re-analysis of the deposited data

How the results depend on the processing

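The count of regions held by all libraries was 5 to 7 under every alternative run. Peak counts per line stayed within 1.5 times. The single region of 1 line alone was 2 when all lists were cut to equal length and 3 with a 50% overlap. It ranged from 1 to 3 without single libraries: 2 without Panc327 replicate 1, 3 without replicate 2, and 2 without SUIT2 replicate 1 or replicate 2. At a −log10 q of at least 20 it was again 1, but then the region at −26.6 to −24.6 kb. These counts use regions merged anew. With the regions kept as reported, the 4 without BxPC3 were 4 or 5 without single libraries. BxPC3 covered 32161 bp at that threshold, 31950 bp at equal length and 31994 bp in the narrower window. Its mean percentile among windows, 99.835, became 99.812 at that threshold and 99.868 with shifted windows. The stitched cluster measured 83.6 kb in BxPC3, 120.1 kb in Panc327 and 135.6 kb in SUIT2 at 20 kb, 14.1 kb in Panc327 and 7.52 kb in SUIT2 at 5 kb, and 61.6 kb in Panc327 at the stricter threshold, against 93.7 kb as reported. No paired analysis was possible because no result comes from a test. Signal under the calling limit of a list cannot be seen in these files.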
